A study of Mus musculus with 26 samples.

Results

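The subcutaneous white fat pad of WT mice was compared between the ChREBPβ-deficient line and the total ChREBP KO line. Of the 26 arrays of the series, 14 came from these WT mice, 7 from each line, and they were chosen by their titles alone. Each array held the RNA of the fat pad of 1 mouse. All mice went through a fast of 24 h and a refeeding period of 18 h, during which the drinking water held 20% glucose. WT mice of the ChREBPβ line (β-line WT) were littermates of mice in which CRISPR/Cas9 editing removed exon 1b of Mlxipl, the gene of the glucose-responsive transcription factor ChREBP. WT mice of the total line (total-line WT) belonged to the line with Mlxipl-null mice, which lack both isoforms. None of the 14 mice was a KO, so the comparison addresses how far the control groups of both lines were alike. The labels give neither sex nor age nor genetic background, while the methods name male C57BL6/J mice. Each WT group belongs to 1 line, so line, colony, litter, genetic background and the day of dissection cannot be told apart in any difference below.

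Subcutaneous white fat stores triglycerides in large adipocytes, and among these lie beige adipocytes that turn on a heat-producing program under sympathetic stimulation. The program rests on UCP1, a carrier that uncouples mitochondrial respiration from ATP synthesis, and on enzymes that deliver fatty acids to mitochondria. The inguinal pad also encloses a lymph node, and its stroma holds progenitors, vessels, nerves, resident macrophages and mast cells. A dissected pad can therefore differ in its makeup as well as in the activity of its cells. In bulk RNA of this kind, fewer cells of a type and less RNA per cell cannot be told apart.

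All values are log2 intensities after quantile normalization, a gene is read at its brightest probe, and a difference is β-line WT minus total-line WT. Adjusted p-values are from limma, with 7 arrays against 7, and errors of differences are SE. On the WT arrays between 71.2% and 74.9% of spots were well above background, and saturated spots were not found. Correlations between arrays were 0.986 to 0.994 within β-line WT, 0.982 to 0.996 within total-line WT and 0.960 to 0.983 between them. The first principal component of the 14 arrays held 58.6% of the variance and separated both lines. Both scan days and all 4 wash batches held mice of both lines, so a difference could be read within each wash batch as well. Wash batches 1, 2, 3 and 4 held 1, 2, 1 and 3 β-line WT and 1, 2, 2 and 2 total-line WT. Differences within wash batches therefore rest in part on single mice.

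Of 25407 genes tested, 11586 (45.6%) passed at an adjusted p under 0.05, with 6712 (26.4%) higher and 4874 (19.2%) lower in β-line WT. The share of higher genes among the called probes depended on scaling. It was 57.0% with quantile normalization and 43.4% when each array was scaled to its 75th percentile, which moved the median of all probes from 0.03 to -0.07. Most differences were small, with a median size of 0.45 among called genes, but 1766 called genes differed by at least 2-fold. The largest were mainly decreases, since 142 genes were lower and 4 were higher by at least 8-fold. The arrays of the groups did not overlap for 4309 genes (17.0%), with 2716 (10.7%) higher and 1593 (6.27%) lower. The median difference over all genes was 0.03. Counts of higher and lower genes in the lists below are to be read beside the shares of 26.4% and 19.2%.

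Mlxipl itself was present in all 14 mice. β-line WT had values of 15.29 to 16.18 (median 15.66) and total-line WT 15.62 to 16.59 (median 15.92), and the ranges overlapped. At this brightest probe the arrays of the mice that carry the deletions were below both, from 13.63 in total ChREBP KO to 14.38 in ChREBPβ KO. The difference of -0.33 ± 0.13 between the WT groups lay close to the threshold (adjusted p = 0.0465), and the exact permutation test over the 14 mice (two-sided) gave p = 0.0705. The call was lost, at differences of -0.34 to -0.23 and adjusted p-values of 0.0513 to 0.126, when any of β-line WT 1, 2, 3, 6 and 7 or total-line WT 3, 4, 5 and 6 was left out. Within wash batches the difference ran from -0.61 to 0.12. At another Mlxipl probe the WT groups differed by -0.38 ± 0.12 (adjusted p = 0.0140). At the remaining probe they differed by -0.17 ± 0.07 (adjusted p = 0.0617), and the arrays with deletions, from 11.42 upward, overlapped both WT groups.

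The thermogenic program was lower in β-line WT. Of 20 thermogenic genes tested, 16 were lower and 1 was higher, with a median difference of -1.22. Ucp1 spanned 6.51 to 11.58 (median 8.77) in β-line WT and 12.57 to 16.55 (median 16.25) in total-line WT. The groups did not overlap, and every mouse of the total line exceeded the highest of the other line. The means of 8.61 ± 2.01 (SD, n = 7) and 15.44 ± 1.45 (SD, n = 7) differed by -6.83 ± 0.75, a 114-fold difference (adjusted p = 1.15e-07). The exact permutation of the 14 arrays gave p = 0.000583, the smallest that 3432 splits allow. The probe lies at chr8:85821788-85821847 of build mm9. In the mice with deletions Ucp1 was at 5.67 to 8.63 in ChREBPβ KO and 7.38 to 10.10 in total ChREBP KO, so total-line WT stood above the arrays of all 3 other groups.

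Genes that act beside UCP1 followed the same order. Acot11, an acyl-CoA thioesterase that is induced in brown fat by cold, was at 8.33 to 11.79 (median 10.13) against 11.87 to 14.37 (median 13.83), with no overlap and a difference of -3.48 ± 0.40 (11.2-fold, adjusted p = 2.13e-07). Elovl3, which elongates fatty acids in brown fat, was at 7.22 to 9.38 (median 7.54) against 8.17 to 13.30 (median 11.88). Its ranges overlapped through the lowest mouse of the total line, and the difference was -3.47 ± 0.59 (adjusted p = 3.29e-05). Cpt1b, the muscle form of the carnitine palmitoyltransferase that admits fatty acids to mitochondria, differed by -2.47 ± 0.28 and Cox7a1, a respiratory chain subunit of heart, muscle and brown fat, by -2.46 ± 0.26, both without overlap. Fabp3, a fatty acid carrier, differed by -2.59 ± 0.69 (adjusted p = 0.00331).

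Cidea, a lipid droplet protein, was lower by a smaller step, at 13.70 to 16.11 (median 14.85) against 15.41 to 17.43 (median 16.72). Its difference of -1.68 ± 0.31 was 3.21-fold (adjusted p = 0.000102), and the ranges overlapped. Dio2, which activates thyroid hormone, differed by -1.74 ± 0.46, but by only -0.08 in the wash batch with the smallest difference. Otop1, a proton channel, did not overlap between the groups (-1.56 ± 0.19). Nrg4, a factor secreted by brown adipocytes, was the 1 thermogenic gene that was higher (0.68 ± 0.15, adjusted p = 0.000476).

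**Figure D1:**
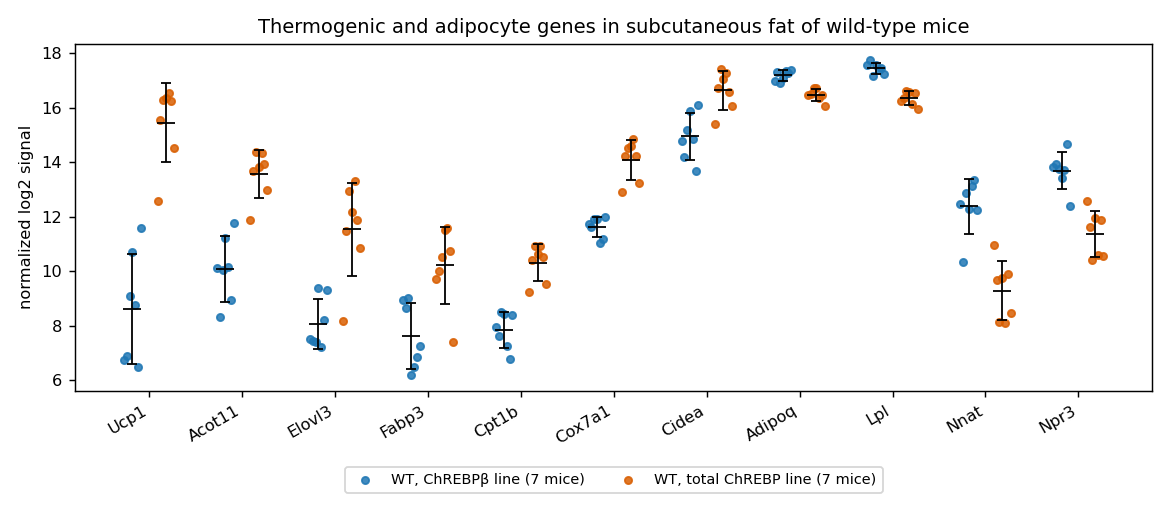
Normalized log2 intensity of 7 thermogenic genes (Ucp1, Acot11, Elovl3, Fabp3, Cpt1b, Cox7a1 and Cidea) and of Adipoq, Lpl, Nnat and Npr3 in each WT mouse, with 1 point per mouse and the mean ± SD of each group (n = 7). Ucp1 spans 6.51 to 11.58 in β-line WT and 12.57 to 16.55 in total-line WT, while Lpl is higher in every mouse of the ChREBPβ line.

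The thermogenic difference was present in each wash batch, where the median over the 20 genes ran from -2.27 to -0.89 and that of Ucp1 from -9.95 to -5.59. Lymphocyte markers separated the same groups (values below). With the lymphocyte and skeletal muscle scores of each array as covariates, a fit in which 4.99% of all genes passed, 12 of the 20 genes passed and Ucp1 differed by -7.53 (adjusted p = 0.00771).

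The regulators of the program moved in both directions, with 4 higher and 7 lower of 16. Ppargc1a, the coactivator of mitochondrial biogenesis, was at 9.61 to 10.10 against 10.12 to 11.25, without overlap (-0.73 ± 0.18, adjusted p = 0.00137). Esrrg, an estrogen-related receptor (-1.20 ± 0.25), and Ppara, the receptor that drives fatty acid oxidation genes (-0.67 ± 0.17), were lower as well. Ebf2, which maintains the beige and brown fate, was higher, at 10.50 to 11.26 against 9.99 to 10.40, without overlap (0.68 ± 0.09, adjusted p = 2.03e-06). The level of UCP1 mRNA and that of this fate regulator thus lay on opposite sides in the same mice.

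Lineage markers did not move as a block. Of 12 beige lineage markers 3 were higher and 3 lower, and of 9 brown fat lineage markers 5 were higher and 3 lower. Lhx8, a brown fat transcription factor, rose by 1.05 ± 0.17 at its brighter probe, while its other probe differed by -0.01. Klhl13, a ubiquitin ligase adaptor used as a beige marker, rose by 0.81 ± 0.12, while P2rx5, a purinergic receptor on brown adipocytes, fell by 1.06 ± 0.20. Tnfrsf9, which also marks activated lymphocytes, differed by -2.03 ± 0.27, and with the lymphocyte and muscle covariates its sign turned (0.31).

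Creatine synthesis was on the other side of the comparison. Gamt, the enzyme of the last step of creatine synthesis, was at 12.13 to 12.66 (median 12.22) in β-line WT and 10.67 to 11.18 (median 11.02) in total-line WT. The difference of 1.41 ± 0.09 (adjusted p = 2.75e-10) was also seen with covariates (1.15, adjusted p = 0.00526), and Gamt differed in the same direction between the KO groups (0.84 ± 0.10). Ckb, the brain creatine kinase, was higher by 1.03 ± 0.11 and Gatm, which catalyses the first step, by 1.04 ± 0.24. Of the 11 genes of creatine and calcium cycling, 5 were higher and 2 lower, beside 26.4% and 19.2% of all genes, with a median of 0.64. With the lymphocyte and muscle covariates the median of this list was 0.07, and 2 of the 11 passed. Among 13 adrenergic, natriuretic and related receptors 5 were higher. Adrb3, the β3-adrenergic receptor through which noradrenaline acts on adipocytes, was at 14.86 to 15.32 against 13.89 to 14.75, without overlap (0.70 ± 0.13).

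Of 75 respiratory chain subunits encoded in the nucleus 6 were higher and 10 lower, with a median of -0.05. This median depended on the processing, being -0.21 with 75th percentile scaling and -0.50 with the lymphocyte and muscle covariates, where 25 of the 75 passed. Between the KO groups it was -0.32. Transcripts of the mitochondrial genome were lower. Of 16 mitochondrial probes tested, 12 were called and all 12 were lower, with a median of -0.43 over the 16, beside 45.3% of all positioned probes called. ND1, a subunit of complex I, showed the largest of these differences (-1.21 ± 0.17), and between the KO groups the median over the 16 probes was -0.53. Of 23 genes of fatty acid oxidation 7 were higher and 6 lower, beside 26.4% and 19.2% of all genes. Cpt1a, the liver form of the transferase, was higher (1.15 ± 0.18) where Cpt1b was lower, and Acsl1, which activates long-chain fatty acids, was also higher (0.74 ± 0.09).

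Immediate early genes, which respond within minutes to signals that include cAMP, were lower in β-line WT. Of 13 such genes and heat shock genes, 8 were lower and none of the other 5 passed, with a median of -1.03. Nr4a1, a nuclear receptor induced by adrenergic stimulation, was at 9.71 to 11.30 (median 10.49) against 11.94 to 12.93 (median 12.60). These ranges did not overlap, and the difference was -2.07 ± 0.27 (4.20-fold, adjusted p = 8.32e-07). Egr1, a zinc finger factor, differed by -2.08 ± 0.42 and Junb by -1.05 ± 0.20. Fos spread more widely, at 7.85 to 12.24 against 10.62 to 13.35, and its difference of -1.88 ± 0.66 (adjusted p = 0.0222) no longer passed without β-line WT 2 (-1.57, adjusted p = 0.0599) or without total-line WT 7 (-1.60, adjusted p = 0.0580). Within wash batches the difference in Fos ran from -2.81 to 0.32.

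The promoters of several of these genes hold the core of the cAMP response element, TGACG or its complement CGTCA. It is shown here because Ucp1, Dio2 and the immediate early genes are known for induction by cAMP. The same search gave no match for Egr1, and only some of the matches found are printed. The stretches below are from RefSeq promoters of build GRCm38.p6, written 5′ to 3′ on the strand of the gene, with the motif in capitals. They are chr8:83290189-83290218 for Ucp1, chr12:90739116-90739145 for Dio2, chr12:85473812-85473841 for Fos, chr8:84978837-84978866 for Junb and chr15:101266765-101266794 for Nr4a1, of which Dio2 and Junb are on the minus strand.
Ucp1: gggctttgggagTGACGcgcggctgggagg
Dio2: cctctttctcaaTGACGtcaagatctttag
Fos: agttccgcccagTGACGtaggaagtccatc
Junb: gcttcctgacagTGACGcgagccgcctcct
Nr4a1: ccgggccgtgtgCGTCAgtggcgcccccgc
The motif was found on either strand in the 250 bases before the start site of 7 of 11 immediate early and heat shock genes with a promoter in the table (63.6%) and of 4 of 15 thermogenic genes (26.7%), beside 19.8% of 27025 gene symbols. The motif was chosen after the values had been seen, and a match is a description of the sequence only.

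General adipocyte genes were higher in β-line WT. Of 26 adipocyte identity genes, 18 were higher and the other 8 did not pass, with a median difference of 0.58, and 12 of the 18 had groups that did not overlap. Lpl, the lipase that releases fatty acids from circulating lipoproteins, was at 17.18 to 17.76 (median 17.45) against 15.94 to 16.63 (median 16.35). Every mouse of the ChREBPβ line was above every mouse of the total line, and the difference was 1.10 ± 0.10 (2.15-fold, adjusted p = 6.75e-09). Plin4, a lipid droplet coat protein (1.08 ± 0.12), and Cav1, the caveolar scaffold (0.98 ± 0.13), did not overlap either. Adipoq, the gene of adiponectin, was at 16.90 to 17.39 against 16.07 to 16.72 (0.72 ± 0.10, adjusted p = 2.79e-06), and Lep, the gene of leptin, at 8.89 to 9.71 against 8.29 to 8.84 (0.78 ± 0.17, adjusted p = 0.000436). With 75th percentile scaling the median over the list was 0.35, and with the lymphocyte and muscle covariates 1 of the 26 genes passed. Between the KO groups of the lines the median over the list was -0.09.

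Genes that mark fat pad expansion, several of them imprinted, showed larger differences. Of 19 tested 13 were higher and 1 lower, with a median of 0.61. Nnat, the imprinted gene of neuronatin, was at 10.34 to 13.34 (median 12.47) against 8.12 to 10.96 (median 9.69), and only the extremes overlapped. Its difference was 3.09 ± 0.55 (8.52-fold, adjusted p = 5.50e-05). Sfrp5, a secreted inhibitor of Wnt signalling, did not overlap, at 10.77 to 14.01 against 8.88 to 10.30 (2.54 ± 0.37). Mest, an imprinted gene whose level follows fat mass, varied widely within both groups, at 7.81 to 12.50 against 6.56 to 9.64 (2.62 ± 0.61, adjusted p = 0.00105). Npr3, the clearance receptor for natriuretic peptides, was higher by 2.30 ± 0.38. The imprinted zinc finger gene Plagl1 was at 12.21 to 13.04 against 10.16 to 11.58 (1.66 ± 0.17), while the KO groups overlapped at 12.36 to 13.19 and 12.53 to 13.26.

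Lipid synthesis differed little. Of 17 genes of de novo lipogenesis 3 were higher and 2 lower, with a median of -0.06, and of ChREBP and 20 genes described as its targets 2 were higher and 6 lower. Elovl6, which elongates newly made palmitate, differed by -0.72 ± 0.15, with ranges of 14.83 to 15.83 and 15.50 to 16.48 that overlapped. Pfkfb3, which raises the activator of phosphofructokinase, was at 15.28 to 15.84 against 14.02 to 14.72 (1.14 ± 0.12), without overlap. Sorcs2, a sorting receptor, lay on the opposite side, at 8.68 to 10.95 (median 9.82) against 11.20 to 13.00 (median 12.48). Its groups did not overlap either (-2.50 ± 0.30, 5.66-fold, adjusted p = 2.78e-07), and 2 further probes of the gene differed by -1.88 and -1.56. Adcy10, the soluble adenylyl cyclase, differed by -1.25 ± 0.29.

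Cholesterol synthesis was lower for 11 of 20 genes and higher for 3, with a median of -0.28. Lss, which closes the sterol ring, was at 11.58 to 12.71 against 12.36 to 13.69 (-0.90 ± 0.17, adjusted p = 0.000143). Mvd (-0.81 ± 0.17), Cyp51 (-0.79 ± 0.16) and Dhcr7 (-0.68 ± 0.15), which act before and after it, were lower by similar amounts. The ranges of all 4 overlapped between the groups. Mvd and Cyp51 also differed in this direction between the KO groups (-0.90 ± 0.18 and -0.60 ± 0.17).

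Connective tissue and vessels were higher in β-line WT. Of 24 extracellular matrix genes 19 were higher and the other 5 did not pass, with a median of 0.91, and 12 did not overlap. Dcn, the gene of the proteoglycan decorin, was at 16.22 to 16.89 against 15.08 to 15.80 (1.19 ± 0.15, 2.29-fold, adjusted p = 6.51e-07). Col3a1, a fibrillar collagen, was at 15.86 to 16.78 against 14.42 to 15.65 (1.18 ± 0.19). Col6a1, a collagen that surrounds adipocytes, was at 14.50 to 15.23 against 13.46 to 14.21, and with the KO arrays included all 12 arrays of the ChREBPβ line were still above all 14 of the total line. Of 15 progenitor genes 9 were higher and 2 lower. Cd34, a surface antigen of adipocyte progenitors, did not overlap (1.30 ± 0.18), and Pi16, a marker of interstitial progenitors, differed by 1.72 ± 0.35.

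Of 16 endothelial genes 11 were higher, with a median of 0.34, and Tek, the angiopoietin receptor, did not overlap (0.78 ± 0.12). Of 13 genes of nerves and Schwann cells 6 were higher and 2 lower. Pmp22, a myelin protein, was at 14.63 to 15.74 against 13.97 to 14.60 (1.01 ± 0.12). With the lymphocyte and muscle covariates no progenitor, matrix or endothelial gene passed in limma, while 11 of the 24 matrix genes were under an unadjusted p of 0.05.

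Lymphocyte genes were far lower in β-line WT. Of 24 T cell genes all 24 were lower in β-line WT, and for all 24 the groups did not overlap, with a median of -4.17. Of 19 B cell genes 18 were lower and 1 higher, with a median of -4.24. The mean over the B cell genes was 6.98 to 7.62 (median 7.11) in β-line WT and 9.73 to 11.62 (median 11.17) in total-line WT. The mean over the T cell genes was 6.85 to 8.22 (median 7.05) against 10.09 to 11.36 (median 11.10). Every total-line mouse was above every β-line mouse in both lists. These lists were also 6.84 to 8.15 and 6.89 to 8.09 in ChREBPβ KO, and spread over 7.19 to 10.25 and 7.04 to 10.63 in total ChREBP KO.

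Ms4a1, the gene of CD20, was at 6.23 to 7.76 (median 6.48) against 11.37 to 13.51 (median 12.95), a difference of -5.98 ± 0.56 (62.9-fold, adjusted p = 1.57e-08). Fcmr, the IgM receptor of B cells, differed by -6.29 ± 0.68. Both were above background on all 14 arrays. Blk, a kinase of B cells, was not well above background in any of the 7 β-line WT and was at least 2.98-fold lower there.

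Ccr7, the receptor that guides naive T cells to lymph nodes, was at 6.64 to 8.47 (median 7.13) against 12.17 to 13.95 (median 13.42). Its difference was -5.99 ± 0.66 (63.4-fold, adjusted p = 1.15e-07). Lef1, a transcription factor of naive T cells, showed the same order (-5.39 ± 0.68). Cd3e, a subunit of the T cell receptor complex, had a smaller difference of -2.66 ± 0.27, at 8.84 to 9.80 against 11.29 to 12.26. Ctla4, an inhibitory receptor of T cells, was not well above background in β-line WT and was at least 4.17-fold lower.

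Genes of lymph node stroma and venules were lower in the same mice, 9 of 14, with 1 higher and a median of -1.82. Ccl21a, the chemokine of lymphatic vessels and node stroma that binds CCR7, was at 5.94 to 8.05 (median 7.38) against 13.50 to 14.73 (median 14.51). The difference of -7.25 ± 0.97 (152-fold, adjusted p = 1.49e-06) was the largest in size among the genes described here, and it ran from -7.89 to -6.66 within wash batches. Mouse has near-identical copies of this gene, among them Gm1987 on the array (-6.18 ± 0.79), so the copy that gave the signal is uncertain. Glycam1, a mucin made by high endothelial venules, was at 7.12 to 7.67 against 11.52 to 13.76 (-5.35 ± 0.48, adjusted p = 8.78e-09). Its KO arrays were at 7.06 to 7.61 and 7.89 to 11.38, so all arrays of the ChREBPβ line lay below all arrays of the total line. Ltb, which lymphocytes use to maintain node stroma (-4.72 ± 0.51), and Ccl19 (-3.80 ± 0.50) also did not overlap. Whether the pads of the total line were collected with more of the lymph node was not tested.

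**Figure D2:**
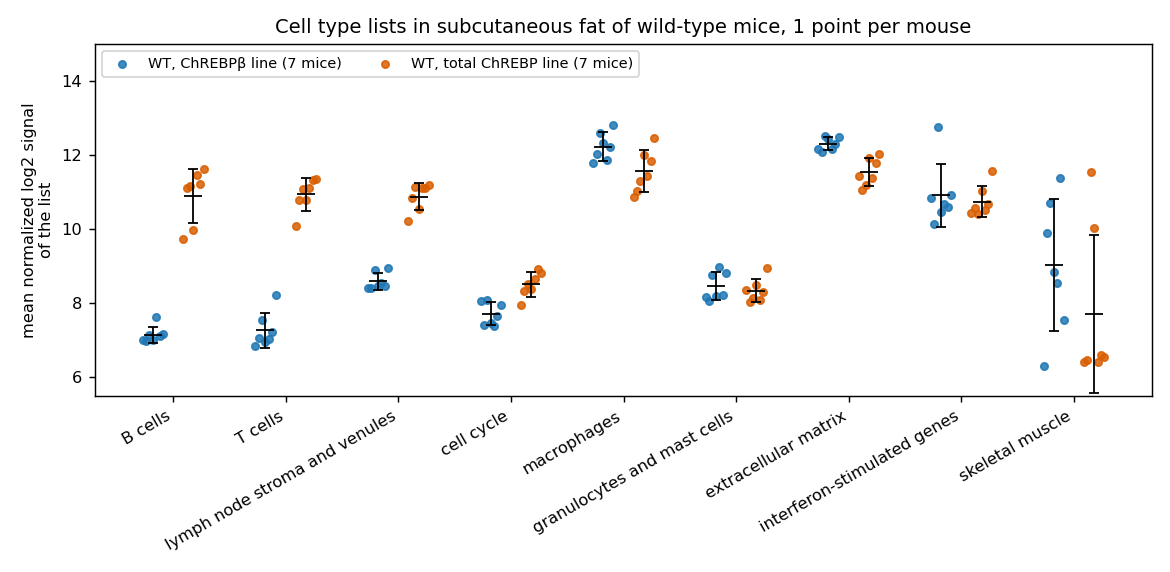
Mean normalized log2 intensity over the tested genes of 9 cell type or process lists in each WT mouse, with 1 point per mouse. The B cell and T cell means do not overlap between the lines (6.98 to 7.62 against 9.73 to 11.62 and 6.85 to 8.22 against 10.09 to 11.36), whereas the skeletal muscle means span 6.30 to 11.39 and 6.41 to 11.54.

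Antibody-secreting cells did not follow the B cells. Of 12 genes of plasma cells and germinal centres 5 were higher and 5 lower. Jchain, which joins IgA and IgM chains, was at 10.75 to 12.67 (median 11.62) in β-line WT against 7.75 to 10.21 (median 8.91), without overlap (2.61 ± 0.38, 6.09-fold, adjusted p = 3.91e-06). Tnfrsf17, the survival receptor of plasma cells, was at 7.09 to 7.55 against 5.15 to 6.17 (1.62 ± 0.16). The light chain segment Igkv14-126 differed by 3.76 ± 0.63, and being 1 of a family of similar segments it may share signal with others. Mzb1, a chaperone of marginal zone B cells and plasma cells, was lower (-2.61 ± 0.39).

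Macrophage genes were higher in β-line WT, 15 of 23, with 1 lower and a median of 0.84. For 4 of the 23 the groups did not overlap. The mean over the list overlapped, at 11.78 to 12.80 against 10.87 to 12.45. Within wash batches the median ran from 0.21 to 1.33. Retnla, a marker of alternatively activated macrophages, was at 13.55 to 15.97 (median 15.50) against 12.40 to 14.17 (median 13.00), with overlap at the edges (1.81 ± 0.35, adjusted p = 0.000158). Folr2, a folate receptor of tissue macrophages (1.78 ± 0.34), and the lectin Cd209f (1.79 ± 0.32) rose by similar amounts. Mrc1, the mannose receptor, did not overlap, at 11.80 to 12.55 against 10.11 to 11.71 (1.33 ± 0.25). Timd4, a receptor for apoptotic cells, was the exception and was lower (-1.70 ± 0.36). Of 12 genes of lipid-associated and crown-like macrophages 2 were higher and 1 lower.

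Genes of granulocytes and mast cells, which form 1 list, moved in both directions, with 7 higher and 5 lower of 16 and a median of -0.06. Cpa3, the mast cell carboxypeptidase, was at 8.54 to 10.73 (median 9.83) against 7.14 to 8.82 (median 7.55), a difference of 2.13 ± 0.47 (4.39-fold, adjusted p = 0.000544). The mast cell proteases Cma1 (1.96 ± 0.43) and Mcpt4 (1.77 ± 0.40) and the IgE receptor subunit Ms4a2 (1.40 ± 0.27) were also higher, whereas Kit, the receptor on which mast cells depend, was lower (-1.09 ± 0.27). Cxcr2, the neutrophil chemokine receptor, was lower (-2.64 ± 0.32) and was above background in 5 of 7 β-line WT. Tslp, an epithelial and stromal cytokine, was at 7.01 to 7.88 against 5.76 to 6.52 (1.37 ± 0.13). Il1rl1, the receptor of IL-33, did not overlap (1.23 ± 0.21).

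Antigen presentation genes of lymphoid cells were lower. Of 10 MHC class II genes 7 were lower and the other 3 did not pass, with a median of -0.98. H2-Ob, the class II chaperone of B cells, was at 6.49 to 7.48 against 9.79 to 12.16 (-4.47 ± 0.45), and H2-Oa, its partner, differed by -4.33 ± 0.46. Of 13 dendritic cell genes 3 were higher and 7 lower, the latter including Flt3, the growth factor receptor of their precursors (-2.60 ± 0.36). Differences in this list ran from -2.60 to 1.10. Their median was -0.58, and 0.21 with the lymphocyte and muscle covariates. Of 14 genes of NK and cytotoxic cells 6 were lower, led by Ccl5 (-3.40 ± 0.56). Interferon-stimulated genes showed little difference between the groups, with 2 higher and 1 lower of 24, but their mean reached 12.76 in β-line WT 3, where the median was 10.69.

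Cell cycle genes were lower for 23 of 28, with 1 higher and a median of -0.79. Top2a, a topoisomerase of dividing cells, was at 6.01 to 7.46 against 7.49 to 9.06 (-1.59 ± 0.30, adjusted p = 0.000100), and Mki67 differed by -1.44 ± 0.25. The medians of the list within wash batches ran from -1.23 to 0.07, and with the lymphocyte and muscle covariates the signs of Top2a (0.32) and Mki67 (0.03) turned.

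**Figure D3:**
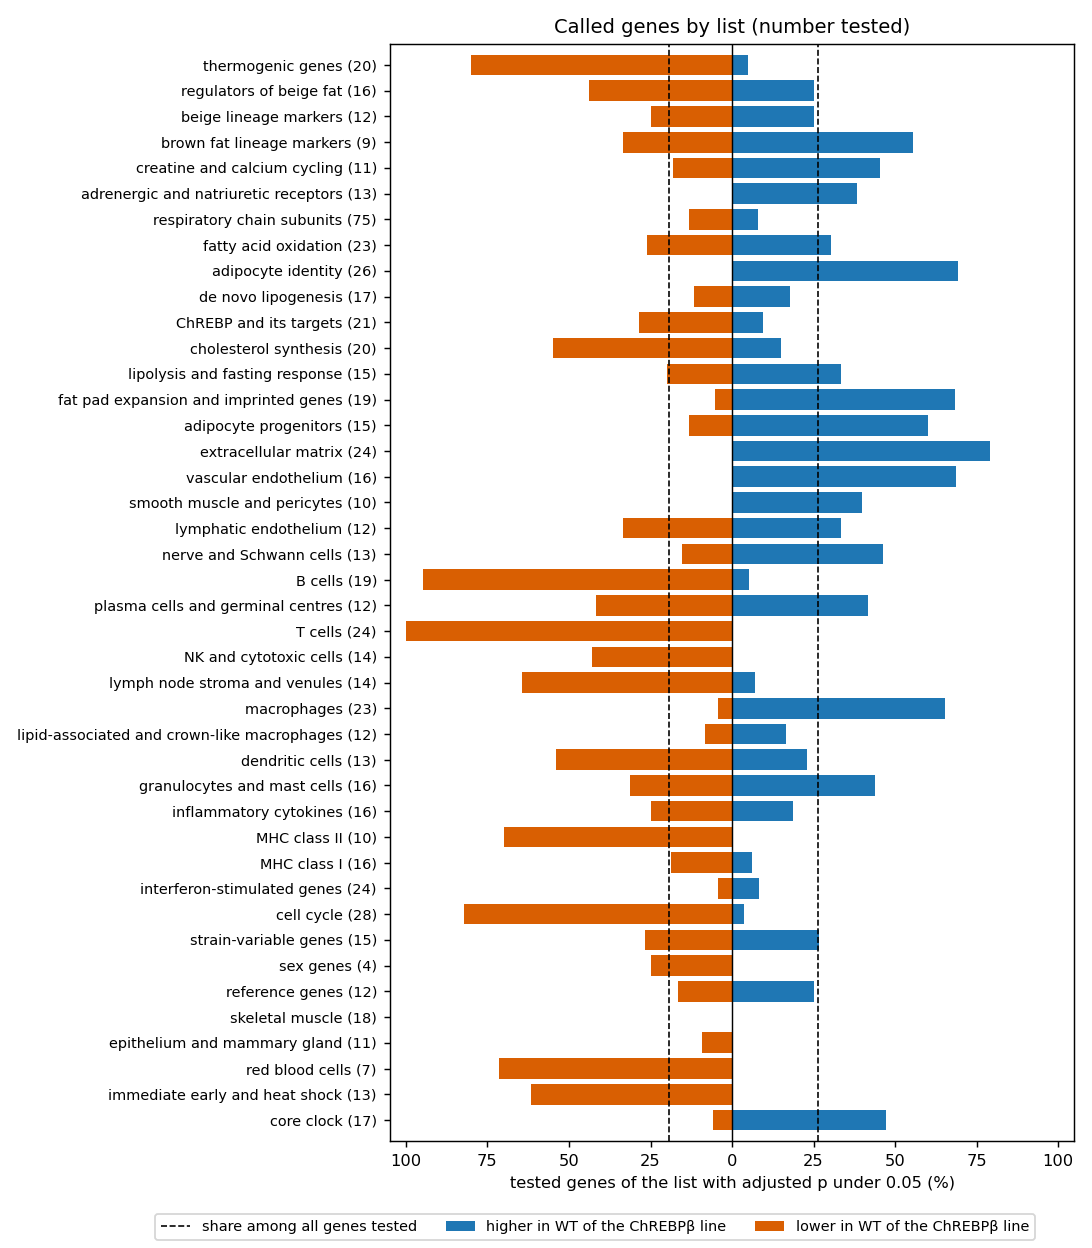
Share of the tested genes of each of the 42 gene lists that were higher (right) or lower (left) in β-line WT at an adjusted p under 0.05, with dashed lines at the shares among all genes (26.4% and 19.2%). T cells, B cells, cell cycle and thermogenic genes lie far to the left of the lower share, and extracellular matrix and adipocyte identity genes far to the right of the higher share.

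Clock output genes were higher in β-line WT. Of 17 core clock genes and their direct outputs 8 were higher and 1 lower, with a median of 0.48. Per3 was at 8.91 to 11.42 (median 10.49) against 8.22 to 8.96 (median 8.68), a difference of 1.61 ± 0.29 (3.06-fold, adjusted p = 5.35e-05). Hlf (1.03 ± 0.25) and Tef (0.92 ± 0.24), transcription factors of the same output family as Dbp, were higher. Dbp varied most, at 11.91 to 15.75 in β-line WT against 12.11 to 13.19, and its difference of 1.24 ± 0.46 (adjusted p = 0.0314) no longer passed without any of β-line WT 1, 2, 3 and 4 or total-line WT 5 (0.94 to 1.16, adjusted p = 0.0584 to 0.0887). Within wash batches it ran from -0.32 to 3.06. The spread of Per3 was 0.97 (SD, n = 7) in β-line WT and 0.24 (SD, n = 7) in total-line WT. The hour of sampling is not given per mouse.

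**Figure D4:**
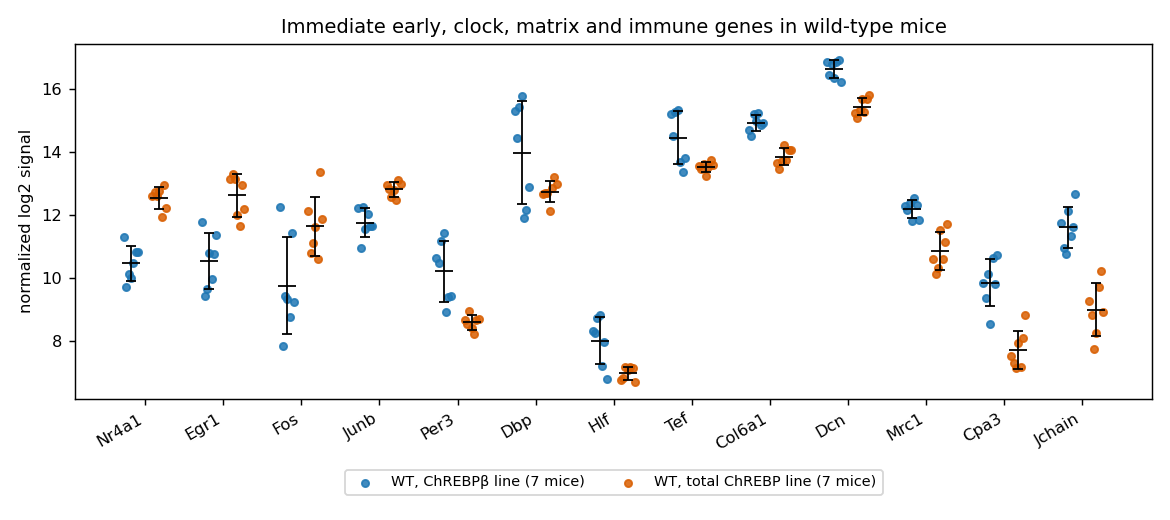
Normalized log2 intensity of immediate early genes (Nr4a1, Egr1, Fos, Junb), clock output genes (Per3, Dbp, Hlf, Tef), stromal genes (Col6a1, Dcn), a macrophage gene (Mrc1), a mast cell gene (Cpa3) and Jchain in each WT mouse, with the mean ± SD of each group (n = 7). Nr4a1, Junb, Dcn, Col6a1, Mrc1 and Jchain do not overlap, while Fos and Dbp overlap and spread over a wide range within 1 line.

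Genes known to differ between mouse strains showed no single pattern, with 4 higher and 4 lower of 15, beside 26.4% and 19.2% of all genes. Nnt, the mitochondrial transhydrogenase that carries a deletion in the C57BL/6J substrain, was detected on all 14 arrays at 9.91 to 10.25 against 9.40 to 9.92, a difference of 0.34 ± 0.09 (adjusted p = 0.00426). Its other 2 probes were dimmer in both groups, with means of 5.21 against 5.20 and 5.97 against 5.84. They differed by 0.02 and 0.13 and did not pass. Which exons these probes cover was not determined, so their signals do not show whether either line carries the deletion. Cyfip2, which carries a coding variant between C57BL/6 substrains, differed by -2.71 ± 0.38, but its sign turned with the lymphocyte and muscle covariates (0.62). Mmrn1, which some C57BL/6 colonies have lost and which is also a marker of lymphatic endothelium, was at 5.12 to 6.50 against 6.90 to 8.20 (-1.78 ± 0.27). Wdfy1 differed by -0.83 ± 0.21 at its brightest probe and by 0.33 and 0.09 at its other 2 probes, so its direction was not settled.

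Genes that separate the lines in WT and KO arrays together were sought in all 26 arrays. Such genes can still differ between WT and KO of a line. For 515 genes (2.03%) every array of the ChREBPβ line, WT and KO, was on 1 side of every array of the total line, with 447 (1.76%) higher and 68 (0.268%) lower. Such genes include the KO arrays in their choice, so the differences between the KO groups are a description. Marco, a scavenger receptor of marginal zone and lymph node macrophages, was at 7.07 to 7.95 against 11.22 to 13.79 in WT (-4.77 ± 0.32, 27.3-fold, adjusted p = 3.01e-10), and at 7.05 to 8.24 against 9.51 to 11.48 in KO. Prg3, an eosinophil granule protein, was at 4.71 to 5.27 against 6.85 to 9.01 (-3.42 ± 0.22), and Il22ra2, the soluble IL-22 receptor, at 4.92 to 5.58 against 7.50 to 11.27 (-4.89 ± 0.44). In the other direction Chrna5, a nicotinic receptor subunit, was at 6.86 to 7.20 against 4.14 to 5.81, and it was above background in 7 of 7 and 1 of 7 mice (2.39 ± 0.24). Klf14, an imprinted transcription factor (2.02 ± 0.27), Lbp, the lipopolysaccharide binding protein (1.95 ± 0.24), and Cdsn, corneodesmosin (2.03 ± 0.22), were also higher on all arrays of the ChREBPβ line.

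The KO groups share no mouse with the WT groups and allow a look at the same lines in other animals, although they also differ in their deletions. Between the KO groups 7055 genes (27.8%) were called. Of the 11586 genes called between the WT groups, 8741 (75.4%) had the same sign between the KO groups. A total of 3665 genes were called with the same sign in both, which is 31.6% of the genes called in WT and 51.9% of those called in KO. Ucp1 and Ccl21a were not among them (-1.52 ± 0.82, adjusted p = 0.182, and -2.75 ± 1.06, adjusted p = 0.0577), while Dcn (0.82 ± 0.16) and Nnat (3.08 ± 0.60) were.

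Of 38832 probes 17552 (45.2%) were called, and 676 (1.74%) separated all arrays of the lines. On the autosomes and the X chromosome between 42.5% and 47.8% of probes were called, beside 45.3% of all probes with a position. In 470 windows of 5 Mb with at least 20 probes the share ran from 20.0% to 78.3%, with a median of 45.3%. Within 10 Mb of Mlxipl, the edited or targeted gene, 200 of 453 probes were called (44.2%) and 7 (1.55%) separated all arrays of the lines, beside 1.75% of all positioned probes. The window with the highest share of probes that separated all arrays of the lines was on chromosome 10, with 7 of 41 probes (17.1%). In this window 17 of the 41 probes were called. The 7 separating probes were 2 each of Pcdh15, Bicc1 and Tfam and a probe of Rab36 (0.49 ± 0.09). Those of Pcdh15 showed the largest difference (-2.40 ± 0.25 and -1.25 ± 0.15). The first of them was above background on 0 of 7 β-line WT arrays. Bicc1, an RNA-binding protein, differed by 1.22 ± 0.13 and 1.08 ± 0.12. The probes of Tfam, the mitochondrial transcription factor, lie at chr10:70691103-70691162 and chr10:70691260-70691319 (-0.36 ± 0.06 and -0.37 ± 0.07).

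A stretch of chromosome 1 in mm9 stood out in its size. Of 22 probes there 15 were called, 11 higher and 4 lower, and 5 separated all arrays of the lines. The probe ENSMUST00000160058, at chr1:85198851-85198910, had means of 9.33 ± 0.84 (SD, n = 7) against 5.62 ± 0.39 (SD, n = 7), a difference of 3.71 ± 0.27 (adjusted p = 1.01e-09). C130026I21Rik, at chr1:85243308-85243367, had means of 9.72 ± 0.51 and 6.77 ± 0.28 (2.95 ± 0.25, adjusted p = 6.25e-09), but its other 2 probes differed by 0.25 and 0.81. Gm35498, at chr1:85109020-85109076, was lower (-1.38 ± 0.32). Whether these probes also bind related genes nearby was not tested. A difference in sequence or copy number between the lines under these probes was not tested.

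**Figure D5:**
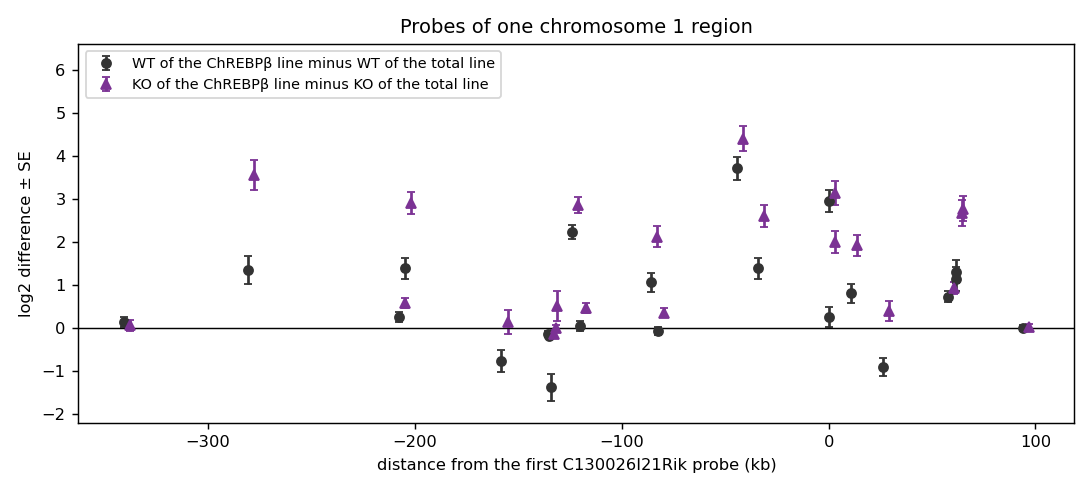
Difference of log2 intensity between the lines (ChREBPβ minus total line) ± SE for 22 probes of the chromosome 1 stretch, for WT and for KO mice, against the distance in kb from the first C130026I21Rik probe. The largest WT differences are 3.71 and 2.95, and some neighbouring probes lie at or below 0.

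Skeletal muscle genes varied between single pads of both groups. The mean of 18 skeletal muscle genes was 6.30 to 11.39 (median 8.85) in β-line WT and 6.41 to 11.54 (median 6.55) in total-line WT. It exceeded 10 in β-line WT 1 and 3 and total-line WT 1 and 5. None of the 18 genes passed in limma, 1 was under an unadjusted p of 0.05, and without total-line WT 1 1 gene, Acta1, passed (2.66, adjusted p = 0.0296). Without these 4 arrays, a choice made after seeing the data, 16 thermogenic genes were still lower, 17 adipocyte identity genes and 16 matrix genes were higher and 11 macrophage genes were higher. Of 11 epithelial and mammary genes 1 passed, Trp63 (-0.51 ± 0.09), but its other 3 probes differed in the opposite direction (1.61, 0.75 and 0.37), so its direction was not settled. Among the genes described above, 1 further probe each of Acsl1, Esrrg, Lss, Flt3 and Il1rl1 and 2 of Lpl did not pass. Of 7 red blood cell genes 5 were lower, with a median of -0.54. Of 4 Y-linked genes 1, Eif2s3y, passed (-0.33 ± 0.09), and all 4 were detected in every mouse. Another probe of Eif2s3y did not pass (-0.23, adjusted p = 0.177).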

How the data were processed

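RNA of 26 subcutaneous fat pads, 1 per mouse, was hybridized to 1-colour Agilent arrays. Arrays were grouped by title, giving 7 WT mice per line, 5 ChREBPβ KO and 7 total ChREBP KO. The deposited scanner files hold spot intensity from Agilent Feature Extraction 10.10.1.1, and the deposited value table holds log2 intensities that the authors had quantile normalized. Here, median spot intensities were taken as log2 with a pseudocount of 0 and quantile normalized without background subtraction. The result correlated with the deposited table at 0.999964 or higher on each array, over 38499 probes in both. A total of 1747 values of outlier spots were left out. A probe was kept if the scanner software called it well above background on 75% or more of the mice in any 1 group, which left 38832 probes and 25407 gene names, of which 18175 matched the gene table. Probe coordinates are those of the files (mm9). Exon and UTR annotation of the probes was not used here.

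Differences were fitted with limma 3.58.1 in R 4.3.3 over all 26 arrays with 4 group means and 22 residual degrees of freedom and Benjamini-Hochberg adjustment over every tested probe. Between 2 groups of 7, single genes were also tested by exact permutation of 3432 splits. A fold written as "at least" is a bound for a probe that a whole group left undetected. There the dimmer group was raised, array by array, to the dimmest detected probe of that array, unless the probe itself was brighter, and the mean of the other group was set against it. The lymphocyte and muscle covariates are the means over the B and T cell lists and over the skeletal muscle list on each array. Promoters are RefSeq sequences of GRCm38.p6, from 250 bases before to 50 bases after the start site. The fit was tested on simulated data with known changes.

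The 42 gene lists (744 genes) and the members were chosen with earlier results of these data known. Named genes were Mlxipl, Ucp1, Nnt, Lep and Adipoq, the 5 largest non-overlapping differences in each direction, the 5 largest that also passed with covariates, up to 4 genes per list, and the 5 largest in each direction that separated all arrays of the lines, 170 genes in all, of which some are not reported here. Blk, Cd3e, Cidea, Col6a1, Cox7a1, Cpt1b, Ctla4, Dio2, Junb, Kit, Mrc1, Ms4a2, Nrg4, Otop1, Plagl1, Bicc1, Tfam, Pcdh15, Rab36, ND1 and the probes of the chromosome 1 stretch were chosen after their values were seen. Alternatives covered the arrays in the fit, array weights, scaling, background correction, the deposited table, dim-probe filters, outlier spots, wash batch, slide, replicate number, the covariates, the probe read for a gene, a fold threshold and each array left out. Each array held 1 mouse, so p-values measure the spread between mice, and the number of arrays limits the precision.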

Additional observations from a re-analysis of the deposited data

Results flagged for a closer look

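Among 424 sets of 7 arrays, 32 (7.55%) held an array far from the other 6 of its group by Dixon's criterion. Chance gives this in about 1 of 20 sets. β-line WT 6 was high for cytotoxic, naive T cell and antigen presentation genes, with Ccl5 at 13.96, Nkg7 at 11.18, Cd8b1 at 9.43, Klrd1 at 9.29, Flt3 at 8.17, Lef1 at 7.50, H2-Oa at 7.21, Ccl17 at 6.41 and H2-DMb2 at 5.18. The same mouse stood apart for B2m at 17.13, Wdfy1 at 11.65 and the MHC class II list at 11.51, which was 10.60 or lower in the other 6. β-line WT 8 was high for the B cell list (7.62), Fcmr (7.41), Ly6d (9.11) and Acp5 (17.72), and low for Crtac1 (7.26), Eif2s3y (10.05), Gatm (7.37), Marco (7.07) and Pmp22 (14.63). β-line WT 3 had the highest mean of interferon-stimulated genes, 12.76. β-line WT 2 had a low Nnat of 10.34, where the other 6 were at 12.25 or higher, and a high Nnt of 10.25. β-line WT 7 had Lox at 11.52.

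Fewer arrays of the total line stood apart. Total-line WT 4 was low for Ccl5 (14.08), Dapl1 (10.35) and Lef1 (10.60), while these values were still above all arrays of β-line WT. Total-line WT 6 had an epithelial and mammary list mean of 7.91 and Ckb at 9.61. Total-line WT 1 had Chrna5 at 5.81, and total-line WT 8 had Mcpt4 at 11.23.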

How the results depend on the processing

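The 17552 called probes, the 169 called genes of the 170 named and the 390 called members of the 705 tested in the lists changed most with the lymphocyte and muscle scores as covariates, to 1750, 35 and 76. Since the lymphocyte score itself separates the WT groups, this fit leaves little of the line difference to estimate. The score is the mean of the B and T cell genes themselves, so what these genes show in the fit follows from its design. In this fit 1 adipocyte identity gene and 0 matrix, 0 B cell, 0 T cell and 0 macrophage genes passed in limma. In the last 4 lists 11, 8, 2 and 7 genes were under an unadjusted p of 0.05, and 18 probes near Mlxipl were called. Among the genes reported here, signs turned in that fit for Ccl21a (0.20), Gm1987 (0.0498), Dapl1 (0.72), Tnfrsf9 (0.31), Epsti1 (0.42), Atp2a3 (0.31), Ndufv3 (-0.22), Srebf1 (-0.0516), Icam1 (0.0334), Mzb1 (0.0261), Lef1 (0.68), Cd8b1 (0.83), Ccl5 (1.03), Klrd1 (0.26), Nkg7 (0.63), Eomes (0.10), Ccl19 (0.38), Itgax (0.34), Flt3 (0.35), Ciita (0.0447), Psmb8 (0.28), Psmb9 (0.38), Top2a (0.32), Tk1 (0.16), Mki67 (0.0256), Cyfip2 (0.62), Wdfy1 (0.23), Ywhaz (0.14) and the chromosome 1 probe of Gm35498 (0.29). Ppia turned to -0.0276 and -0.0458 when the median or the processed signal was scaled to the 75th percentile, where 43.4% and 48.6% of the calls were higher, against 57.0%. Requiring all 26 arrays above background tested fewer probes (21296) and left 10180 probes, 106 named genes, 9 thermogenic, 7 B cell and 7 T cell genes and 128 probes near Mlxipl called. A change of at least 1.5-fold was met by 5902 called probes, and with slide as a fixed block 133 probes near Mlxipl, 11986 probes in all, 135 named genes, 295 list members and 10 macrophage genes were called.

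Leaving out each array in turn gave 16034 to 17793 probes, 162 to 167 named genes, 366 to 394 list members, 16 to 17 thermogenic, 16 to 18 adipocyte identity, 16 to 20 matrix, 18 to 18 B cell, 24 to 24 T cell and 13 to 16 macrophage genes, and 174 to 202 probes near Mlxipl. Of the named genes, 11 lost their call in at least 1 of these fits and 0 changed sign. Same-numbered mice deviated together in no regular way (r = -0.29 to 0.26 over 6 numbers), and a replicate block gave 16507 probes, 164 named genes and 373 list members. Without the 4 muscle-rich arrays, an alternative chosen after seeing the data, the numbers were 16138, 160 and 349. The cause of these shifts was not tested beyond the fewer probes or arrays stated.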

Other observations

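Of 15 genes of lipolysis and the fasting response 5 were higher and 3 lower, beside 26.4% and 19.2% of all genes. Their median difference was 0.27. Pck1, the glyceroneogenic enzyme of adipocytes, was at 14.28 to 14.95 in β-line WT against 13.19 to 14.21 in total-line WT, without overlap (0.98 ± 0.18, adjusted p = 6.79e-05). Pdk4, the kinase that turns off pyruvate dehydrogenase, lay on the other side at 10.52 to 11.36 against 11.01 to 12.88 (-1.15 ± 0.21), as did the stress gene Ddit4 (-1.02 ± 0.29). Of 10 smooth muscle and pericyte genes 4 were higher, among them Rgs5, a pericyte marker (0.55 ± 0.11). Acta2, smooth muscle actin, was higher at its brightest probe (0.91 ± 0.22). Dimmer probes were higher as well (0.95, adjusted p = 0.000456, and 0.45, adjusted p = 0.0153). Another was lower (-0.54, adjusted p = 0.00917), so the probes did not all share a direction.

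Of 12 lymphatic endothelial genes 4 were higher and 4 lower. Lyve1, a hyaluronan receptor of lymphatic vessels and macrophages, was higher (1.15 ± 0.34, adjusted p = 0.00752), whereas Stab2, a scavenger receptor of sinus endothelium, was at 5.46 to 6.22 against 7.16 to 9.55 (-2.67 ± 0.33). Of 16 inflammatory cytokines and receptors 3 were higher and 4 lower, and Il1b spread over 5.13 to 8.58 against 7.07 to 9.50 (-1.66 ± 0.54, adjusted p = 0.0145). Of 16 MHC class I genes 1 was higher, B2m (0.37 ± 0.08, with -0.07 at another probe), and 3 were lower, among them the immunoproteasome subunit Psmb8 (-0.65 ± 0.17). Of 12 genes often used as references 3 were higher and 2 lower, with differences of -0.18 to 0.37.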
